A study of Mus musculus with 26 samples.

Results

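The untreated libraries labelled lung monocytes were compared with the untreated libraries of whole lung, to describe which genes and which cell type markers the sorted material held at a higher or lower level than the tissue it came from. The members were chosen by their labels alone: 4 libraries of lung monocytes isolated by flow sorting (called the sorted libraries here) and 5 libraries of whole lung (the lung libraries), 9 of the 26 libraries of the series. Every library came from C57BL/6 mice that had been injected into a vein with B16F10, a pigmented mouse melanoma cell line that forms metastases in the lung, so that the tumour-bearing state is shared by all 9. All 9 were labelled as having had no treatment. No genotype beyond the strain and no age is labelled. The sort gate and its surface markers, and the number of mice or cells behind a library, were not stated in the labels or protocols. The labels do not say whether replicates are different animals. The p-values therefore describe the scatter among the libraries at hand, which may be technical in part.

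Monocytes are circulating phagocytes made in the bone marrow that enter tissues, where they can become macrophages or antigen-presenting cells. In the mouse the classical kind is marked by Ly6c2 and the chemokine receptor Ccr2, and the non-classical kind, which patrols the inner wall of vessels, depends on the transcription factor Nr4a1 and carries Cx3cr1. Both carry Csf1r, the receptor for colony-stimulating factor 1, and Cd14 is a co-receptor for bacterial lipopolysaccharide. Lung tissue is otherwise rich in capillary endothelium and in alveolar type 1 and type 2 epithelium. Preparing single cells from tissue with enzymes is known to induce immediate early genes such as Fos and Jun.

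Total counts ran from 36371431 to 48306925 in the sorted and from 33232082 to 47618634 in the lung libraries. Of 55416 genes in the table, 18259 were tested. Levels are TMM-scaled CPM (counts divided by the scaled library total), given as mean ± SD over the 4 sorted or 5 lung libraries. Log2 differences are sorted over lung with a standard error (SE), and adjusted p is the Benjamini-Hochberg value of edgeR's quasi-likelihood test over all tested genes, called at 0.05. On log2 CPM the main axis of variation held 74.7% of the variance and separated the groups. The next, with 8.93%, set lung replicate 2 apart from the other lung libraries. Among the 10561 genes averaging 10 CPM or more, the median coefficient of variation (CV, the SD over the mean) was 5.42% in the sorted libraries and 9.67% in the lung libraries, and no set of 4 lung libraries went below 8.32%. The sorted libraries nevertheless differed among themselves along 1 pattern: replicates 1 and 2 held more RNA of macrophage and melanocyte markers, and replicates 3 and 4 more of T cell, neutrophil and B cell markers. Where leaving out sorted replicates 3 and 4 together ended the call of a named gene, this is stated. The same holds where it moved the larger of a list's higher and lower counts by over 1.5 times.

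In all, 11947 of the 18259 genes (65.4%) differed, 5816 (31.9%) higher and 6131 (33.6%) lower in the sorted libraries. More than 2-fold differences were fewer: 2939 genes (16.1%) were higher and 1851 (10.1%) lower. Every sorted library was above every lung library for 5251 genes (28.8%) and below for 5334 (29.2%). Large differences lay mainly on the higher side, with 413 called genes above a log2 difference of 3 and 42 below −3. The median over all tested genes was −0.04. Scaling by library totals alone moved that median to −0.21 and called 4615 genes higher and 7834 lower (37.1% of the calls higher, against 48.7%). Upper-quartile scaling gave a median of −0.16, with 40.6% of the calls higher. List medians below are best read against the all-gene median. List counts and medians include members with too few lung counts for a fold, such as Il10, Krt15, Glycam1 and Ackr1. In bulk RNA, more cells of a type and more RNA per cell cannot be told apart. The plot of all tested genes sets 6 of the lists described below against this background.

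**Figure D1:**
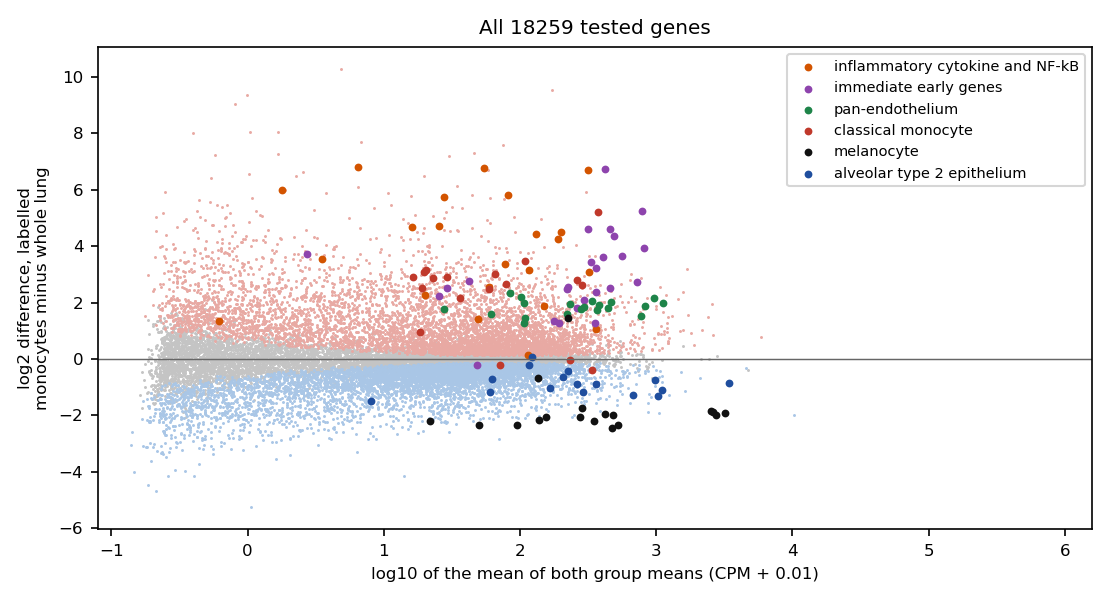
Log2 difference (sorted over lung) against the log10 mean level of all 18259 tested genes; pale red and pale blue points passed the threshold and grey points did not. Coloured points are members of 6 lists: the inflammatory, immediate early, endothelial and monocyte genes lie mostly above 0, and the melanocyte and alveolar type 2 genes mostly below.

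All 3 markers of the labelled cells were higher in the sorted libraries, with no overlap between the groups (28.8% of all tested genes had every sorted library above every lung library). Csf1r (ENSMUSG00000024621) stood at 555, 534, 449 and 424 CPM in sorted replicates 1 to 4, and at 57.6, 62.1, 119, 79.8 and 80.0 CPM in lung replicates 1 to 5. Its log2 difference was 2.62 (SE 0.19, adjusted p = 7.05e-07), a 6.15-fold higher level. Cd14 (ENSMUSG00000051439) stood at 823, 771, 661 and 633 CPM in the sorted and 15.1, 32.0, 19.9, 16.0 and 15.1 CPM in the lung libraries. At a log2 difference of 5.21 (SE 0.24, adjusted p = 2.78e-08) it was 36.9-fold higher. Ccr2 (ENSMUSG00000049103), the receptor through which classical monocytes follow Ccl2, stood at 115, 105, 96.2 and 87.3 CPM against 14.04, 16.99, 24.3, 17.8 and 17.7 CPM, a log2 difference of 2.47 (SE 0.14, adjusted p = 1.19e-07). Each of the 3 markers was highest in replicate 1 and lowest in replicate 4 of the sorted libraries.

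The sorted libraries also held markers of other cell types at high levels. Genes that mark endothelium, surfactant-producing epithelium, airway club cells and melanoma cells were among their abundant transcripts: Cdh5, the adhesion protein of endothelial junctions, stood at 1798 ± 91.4 CPM, the surfactant protein gene Sftpc at 2461 ± 49.9 CPM, the club cell gene Scgb1a1 at 4098 ± 663 CPM and the pigment enzyme gene Tyrp1 at 1103 ± 92.9 CPM. CPM depend on transcript length too, so these levels are not ranked against those of Csf1r. As sums over lists, general capillary genes held 13210 CPM in the sorted libraries, 4.03 times the lung sum, and classical monocyte genes 3117 CPM, 3.17 times the lung sum. The labels give no purity, and no value here shows how much of the material was monocytes or whether it was the sorted fraction and not another fraction of the same preparation; the word sorted follows the labels. What follows is therefore a comparison between material labelled as monocytes and whole lung, described by 28 lists of cell type markers and 17 lists of pathways. The plot of marker levels by library shows both kinds of gene side by side.

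**Figure D2:**
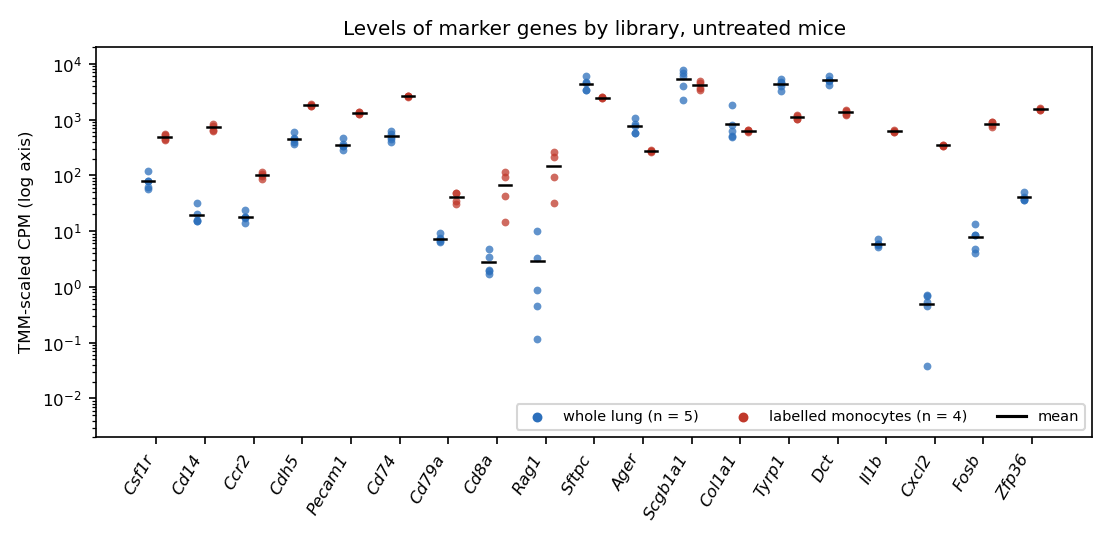
TMM-scaled CPM (log axis) of 19 genes in each of the 5 lung libraries (blue) and the 4 sorted libraries (red), with group means as black bars. Csf1r, Cd14, Cdh5, Cd74, Il1b, Cxcl2 and Fosb are higher in every sorted library than in any lung library, Sftpc, Ager, Tyrp1 and Dct are lower in every one, and Cd8a and Rag1 vary widely between the sorted libraries. Of all tested genes, 28.8% lay above and 29.2% below in every sorted library.

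Of the 18 classical monocyte genes, 15 were higher and none was lower (background 31.9% higher, 33.6% lower), with a median log2 difference of 2.73. Besides Cd14 and Ccr2 these included Ly6c2 at 36.3 ± 1.10 against 4.10 ± 1.04 CPM. The 3 exceptions were Chil3, a chitinase-like protein (292 ± 53.9 against 380 ± 177 CPM, adjusted p = 0.288), Hp, haptoglobin (adjusted p = 0.858), and Mgst1, a microsomal glutathione transferase (adjusted p = 0.164). Non-classical monocyte genes were higher for 14 of 15 tested members, with a median of 2.52. Itgal, the α chain of the integrin LFA-1, stood at 388, 387, 399 and 394 CPM in the sorted and 31.0, 22.1, 72.4, 42.6 and 45.9 CPM in the lung libraries, a log2 difference of 3.20 (SE 0.27). Adgre4, an adhesion receptor of the F4/80 family, had the largest difference of the list, 3.43 (SE 0.40), at 84.6 ± 6.997 against 7.81 ± 4.64 CPM. Nr4a1, which is also an immediate early gene, stood at 778 ± 39.5 against 136 ± 14.5 CPM. Cd36, the scavenger receptor, stood at 1572 ± 63.6 against 431 ± 134 CPM and is a gene of capillary endothelium as well. The member that did not pass was Eno3, a muscle enolase (26.9 ± 1.68 against 27.1 ± 3.42 CPM).

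Macrophage genes were split by kind. Interstitial macrophage genes were higher for 13 of 16 and lower for 2, with a median of 2.45. C1qb, a chain of complement C1q, stood at 404, 370, 305 and 262 CPM in the sorted and 28.03, 46.4, 39.9, 32.9 and 32.9 CPM in the lung libraries (log2 difference 3.22, SE 0.17, adjusted p = 6e-08). Lyve1, a hyaluronan receptor that lymphatic endothelium shares, was 2.83-fold higher, and Apoe, the lipid carrier, 1.48-fold higher at 1453 ± 147 against 982 ± 74.6 CPM. The 2 lower members were Cd63, a tetraspanin of late endosomes and melanosomes (259 ± 35.1 against 647 ± 128 CPM), and Maf, a transcription factor, whose log2 difference of −0.21 lost its call without sorted replicates 3 and 4. Alveolar macrophage genes were higher for 11 of 16 with none lower, but their median was 0.69. Itgax, the integrin CD11c, was 5.18-fold higher at 191 ± 29.7 against 36.9 ± 6.52 CPM, and the chemokine gene Ccl6 3.45-fold. The count for this list fell to 8 when library totals or the upper quartile set the scale, and also when lung replicate 1 or 4 or sorted replicate 1 or 2 was left out.

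Phagocyte receptor genes, a list across all these cells, were higher for 27 of 28 members with a median of 2.43. Itgb2, the β2 integrin chain shared by leukocytes, stood at 541 ± 65.8 against 87.8 ± 19.8 CPM. Trem1, which amplifies inflammatory signals in myeloid cells, had the largest difference, 5.72 (SE 0.16), at 102, 108, 126 and 138 CPM in the sorted against 1.44 to 2.67 CPM in the lung libraries. Axl, a receptor tyrosine kinase that binds dying cells, was 2.04-fold higher. The member that did not pass was Tlr4, the lipopolysaccharide receptor, at 36.8 ± 5.04 against 34.1 ± 2.92 CPM (adjusted p = 0.348), while Cd14, its co-receptor, was 36.9-fold higher. Of 16 transcription factors of myeloid cells 14 were higher (median 1.39), among them Klf4, also an immediate early gene, at 480 ± 15.1 against 113 ± 47.8 CPM.

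Dendritic cell genes were higher for 13 of 18 and lower for 1 (median 1.54). The largest difference was that of Cd209a, a C-type lectin of monocyte-derived dendritic cells, at 51.3, 55.5, 50.04 and 45.3 CPM in the sorted and 3.08, 1.92, 3.05, 4.05 and 3.65 CPM in the lung libraries (log2 difference 3.99, SE 0.17). Fscn1, an actin-bundling protein, was the lower member, at 105 ± 3.27 against 222 ± 63.8 CPM. Xcr1 and Siglech, which define cross-presenting and plasmacytoid dendritic cells, did not pass (adjusted p = 0.701 and 0.945). All 10 genes of MHC class II antigen presentation were higher (median 2.38), as were all 17 of MHC class I (median 1.52). Cd74, the invariant chain of MHC class II, stood at 2693, 2650, 2623 and 2560 CPM in the sorted and 401, 560, 632, 445 and 479 CPM in the lung libraries, a 5.23-fold higher level. H2-Eb1 had the largest difference of the class II list, 2.995 (SE 0.12). The class II members differed by 1.53, for the activator gene Ciita, or more. In class I, H2-D1 was 2.94-fold, H2-K1 2.81-fold and B2m, β2-microglobulin, 2.13-fold higher. Class I genes are near-identical in part, and reads can be split between them.

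Neutrophil genes had the largest median of the 28 cell type lists, 4.23, with 17 of 18 higher. Acod1, which makes itaconate in activated myeloid cells, stood at 100, 121, 177 and 203 CPM in the sorted and 0.398, 0.944, 1.49, 0.798 and 0.339 CPM in the lung libraries. Its log2 difference was 7.59 (SE 0.36, adjusted p = 3.35e-08), with no overlap (28.8% of all tested genes had every sorted library above every lung library). Ngp, a granule protein made by maturing neutrophils, stood at 20.8, 35.6, 84.5 and 96.7 CPM against 0.0778 to 0.646 CPM (log2 difference 7.19, SE 0.57), S100a9 at 92.0, 132, 226 and 253 CPM against 4.37 to 6.32 CPM, and Il1r2, the decoy receptor of interleukin 1, at 81.6, 99.1, 139 and 141 CPM against 0.506 to 2.63 CPM. In each of these 4 genes sorted replicates 3 and 4 were above replicates 1 and 2. Without replicates 3 and 4 the list median was 3.71, with 17 higher, and the log2 differences of Ngp and S100a9 were 6.09 and 4.38. The member called lower was Lcn2, an iron-siderophore binding protein, at 49.1 ± 12.2 against 115 ± 91.7 CPM (adjusted p = 0.0294). Lung replicate 2 held 276 CPM of it, the other lung libraries 62.9 to 106 CPM. The groups overlapped, and the call was lost when sorted replicate 1, 2 or 3, or replicates 3 and 4 together, were left out and under limma-voom. Without lung replicate 2 the log2 difference was −0.61, against −1.22.

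Platelet and megakaryocyte genes were higher for 12 of 13 tested members (median 2.68). Ppbp, the platelet basic protein, stood at 28.03, 32.0, 40.4 and 43.8 CPM in the sorted and 2.93, 2.30, 4.31, 3.23 and 3.22 CPM in the lung libraries. The related chemokine gene Pf4 was 8.43-fold and the platelet receptor Treml1 15.9-fold higher. Itgb3, the β3 integrin chain that vessel wall and tumour cells also make, did not pass (40.2 ± 1.81 against 49.2 ± 13.5 CPM, adjusted p = 0.133), but was called lower under library-total and upper-quartile scaling and without lung replicate 4. Erythroid genes differed in the other direction, with 6 of 11 lower and 1, Gata1, higher (median −1.01). The background was 33.6% lower and 31.9% higher. The call of Gata1 was lost with the replicate number as a block (adjusted p = 0.0517) and without sorted replicates 3 and 4 (0.0608). The β-globin gene Hbb-bs stood at 84.2, 89.2, 94.2 and 108 CPM in the sorted and 195, 129, 509, 318 and 265 CPM in the lung libraries. Globin genes come in near-identical copies, so their single values are uncertain. Of 14 mast cell, basophil and eosinophil genes 8 were tested and 5 were higher, among them Gata2 (233 ± 7.25 against 46.5 ± 20.0 CPM) and Kit, both of which other cells express. Without sorted replicates 3 and 4 the list had 3 of 9 higher and a median of 0.76, against 1.31. That share was near the background of 31.9% higher. The other members, Fcer1a, Ms4a2, Mcpt8, Tpsb2, Epx and Cd200r3, were too low to be tested.

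Lymphocyte genes were higher as well, and unevenly between the sorted libraries. All 16 B cell genes were higher (median 2.21). Cd79a, a chain of the B cell receptor complex, stood at 31.1, 34.2, 47.7 and 47.5 CPM in the sorted and 6.26, 6.70, 9.19, 7.57 and 7.08 CPM in the lung libraries (log2 difference 2.45, SE 0.16). Among T cell genes 17 of 18 were higher (median 2.78). Lck, the T cell receptor kinase, stood at 19.3, 45.0, 104 and 123 CPM against 4.90, 7.11, 11.5, 5.33 and 8.08 CPM, and Cd4 at 22.6, 38.8, 66.2 and 78.6 CPM against 4.13 to 8.07 CPM. Foxp3, the factor of regulatory T cells, did not pass (0.580 ± 0.303 against 0.663 ± 0.252 CPM, adjusted p = 0.717). Natural killer and cytotoxic lymphocyte genes were higher for 8 of 17 and lower for 1, with a median of 0.49. Their defining receptor Ncr1 stood at 0.985 ± 0.263 against 1.31 ± 0.253 CPM (adjusted p = 0.16), and Ccl5 and Gzma, both shared with T cells, were 1.47-fold and 1.52-fold higher, calls that were lost under library-total scaling and without sorted replicates 3 and 4 (adjusted p = 0.0608 and 0.197); that of Gzma was also lost without replicate 4 alone. For the list, 4 of 17 were higher without replicates 3 and 4 and 5 of 17 under library-total scaling, and the share of 8 of 17 stands beside a background of 31.9%. Plasma cell genes were higher for 8 of 11 (median 1.2); immunoglobulin genes among them share sequence and are uncertain in part.

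A set of genes of developing lymphocytes, chosen after their values had been seen, differed widely between the sorted libraries. Rag1, which with Rag2 cuts antigen receptor genes, stood at 31.5, 92.1, 213 and 260 CPM in sorted replicates 1 to 4 and at 0.447, 0.118, 9.88, 3.29 and 0.891 CPM in lung replicates 1 to 5. The groups did not overlap, which held in this direction for 28.8% of all tested genes. The 4 sorted libraries spanned a wider range in Rag1 than in any of the 3 monocyte markers. Its log2 difference was 5.66 (SE 0.92, adjusted p = 0.000239); it was 6.85 without lung replicate 3 and 4.39 without sorted replicates 3 and 4. Dntt, the polymerase that adds bases at receptor gene joints, stood at 14.9, 38.4, 96.2 and 122 CPM in the sorted and 0.0590 to 3.19 CPM in the lung libraries. Cd8a followed the same order at 14.8, 42.2, 93.3 and 116 CPM against 1.71 to 4.78 CPM. Prss16 and Psmb11, a protease and a proteasome subunit of the thymic cortex, stood at 2.89, 9.43, 24.0 and 29.5 CPM and at 0.301, 1.43, 3.61 and 3.55 CPM in the sorted libraries, against at most 0.596 and 0.127 CPM in a lung library. Arpp21, a phosphoprotein also present in developing T cells, stood at 4.10, 12.3, 31.2 and 37.3 CPM. Syt13, a synaptotagmin, and Chga, a granule protein of neuroendocrine cells, had the same order at 3.403, 7.08, 18.6 and 21.9 CPM and at 0.301, 1.25, 3.45 and 4.51 CPM. The labels do not say whether tissue beside the lung was collected with it, and the part of such tissue in these values and in those of the T cell list was not tested. In the propranolol-treated sorted libraries Rag1 spanned 52.0 to 427 CPM without TMM scaling.

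Summed over the 18 T cell genes, the sorted libraries held 143, 306, 667 and 799 CPM, a CV of 63.9%, and the lung libraries 37.7 to 78.5 CPM. Neutrophil genes summed to 884, 1041, 1423 and 1552 CPM and B cell genes to 516, 601, 740 and 816 CPM. Sums of the interstitial macrophage list went the other way, at 4120, 3937, 3450 and 3179 CPM, as did those of the melanocyte list at 7043, 6663, 5851 and 5627 CPM. The T cell median was 1.75 without replicates 3 and 4, with 16 of 18 genes higher, and the B cell median 2.03, with 16 of 16. By contrast the alveolar type 2 list summed to between 6254 and 6286 CPM in the 4 sorted libraries, a CV of 0.237%, while the lung libraries spanned 9227 to 15240 CPM. The alveolar type 1 sum had a CV of 0.592% and that of the immediate early genes 0.925%. The plot of summed marker levels shows this contrast. Whether the part of a gene's difference that moves with these sums reflects the cells collected was not tested.

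**Figure D3:**
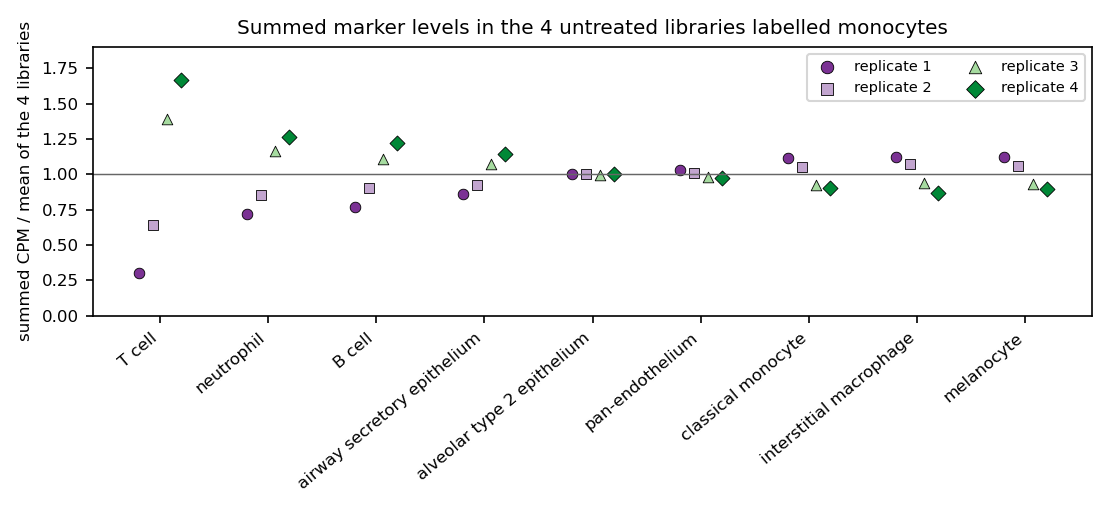
Summed CPM of 9 marker lists in each of the 4 sorted libraries, divided by the mean of the 4; a value of 1 is the mean. T cell sums range from 143 CPM in replicate 1 to 799 CPM in replicate 4, whereas alveolar type 2 sums stay between 6254 and 6286 CPM.

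Genes shared by all endothelium were higher in the sorted libraries. All 20 pan-endothelial genes were higher, each by more than 2-fold (background 16.1%), with a median of 1.86 and a range of 1.27 to 2.35. Cdh5 stood at 1917, 1824, 1725 and 1727 CPM in the sorted and 367, 399, 587, 447 and 467 CPM in the lung libraries (log2 difference 1.99, SE 0.13, adjusted p = 2.65e-07). Pecam1, the junction protein CD31, which leukocytes and platelets also carry, stood at 1354, 1344, 1275 and 1277 CPM against 287, 335, 466, 332 and 361 CPM. Sox17, a transcription factor of arterial and capillary endothelium, had the largest difference of the list, 2.35 (SE 0.13), and Sox18 the smallest, 1.27 (SE 0.16). The list summed to 11530 ± 312 CPM in the sorted and 3143 ± 686 CPM in the lung libraries.

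By vessel segment, general capillary genes were all higher (14 of 14, median 2.01), aerocyte genes, of the capillary cells that carry out gas exchange, higher for 12 of 14 (median 1.16), and arterial and venous genes higher for 11 of 16 with 3 lower (median 1.197). Epas1, the oxygen-sensitive factor HIF-2α, stood at 4187, 4186, 4003 and 3926 CPM in the sorted and 828, 289, 1602, 1283 and 1325 CPM in the lung libraries. Lung replicate 2 was the lowest in Epas1, and likewise in Ptprb, the endothelial phosphatase (141 CPM, the others 364 to 682 CPM), in Calcrl, the adrenomedullin receptor (112 CPM, the others 282 to 545 CPM), and in Prx, periaxin (31.7 CPM, the others 84.1 to 163 CPM). It was not lowest in Pecam1 or in Cd93. Kdr, the main receptor of vascular endothelial growth factor, was 3.47-fold higher. Tbx2, an aerocyte gene with a log2 difference of 0.18, lost its call under most alternatives, among them library-total and upper-quartile scaling. Without sorted replicates 3 and 4 its log2 difference was 0.07 (adjusted p = 0.507). The lower members among arterial and venous genes were Fbln5, an elastic fibre protein (144 ± 5.74 against 417 ± 48.6 CPM), Mgp, matrix Gla protein (420 ± 14.8 against 672 ± 276 CPM), and Dkk2, a Wnt antagonist. For Mgp the call was lost when sorted replicate 1, 2 or 4, or replicates 3 and 4 together, were left out. The list had 1 lower member without sorted replicate 1, without replicate 4 and without replicates 3 and 4. Ackr1, which marks venules, was counted among the higher members at 1.14, 1.25, 2.09 and 1.65 CPM against 0 to 0.272 CPM. Its lung values rest on few counts, so no fold or test is given. Of the lymphatic list 6 of 12 members were higher, beside a background of 31.9%. Its defining factor Prox1 was lower, at 6.38 ± 1.02 against 11.3 ± 3.01 CPM (adjusted p = 0.00236), and so was Pdpn.

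Among 22 vascular growth factors and receptors 16 were higher and 4 lower (median 0.89). The angiopoietin receptor Tek was 4.19-fold and its partner Tie1 3.76-fold higher, with Tie1 between 602 and 608 CPM in all 4 sorted libraries. Vegfa, made by type 1 epithelium among other cells, was 1.44-fold higher. Pgf, placental growth factor, was the most reduced member, at 4.28, 5.71, 4.46 and 5.35 CPM in the sorted and 37.8, 63.5, 21.8, 13.6 and 16.7 CPM in the lung libraries (log2 difference −2.62, SE 0.43). Adhesion molecules by which endothelium captures leukocytes were higher for 11 of 14 tested members and lower for 2 (median 1.40). Esam was 3.0-fold and Icam1 2.08-fold higher. Glycam1, a ligand of L-selectin made in lymph node venules, stood at 4.58, 5.53, 2.22 and 0.953 CPM in the sorted libraries; it was listed at 0 in 4 lung libraries and at 0.0495 CPM in lung replicate 3, and no fold is given for so few counts. The members called lower were Jam3, a junction molecule (6.66 ± 0.340 against 11.6 ± 1.73 CPM), and Alcam. Adrb1, a member of the receptor family that propranolol blocks in the treated arm, was higher. It stood at 77.2, 77.2, 77.1 and 70.5 CPM against 21.2, 7.67, 41.9, 31.6 and 30.5 CPM. The groups did not overlap, which held in this direction for 28.8% of all tested genes. For Adrb3 the groups overlapped (adjusted p = 0.0476), and the call was lost under library-total and upper-quartile scaling and when sorted replicate 3 or 4 or lung replicate 1, 4 or 5 was left out. It was also lost without sorted replicates 3 and 4 together (log2 difference 0.48, adjusted p = 0.445).

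**Figure D4:**
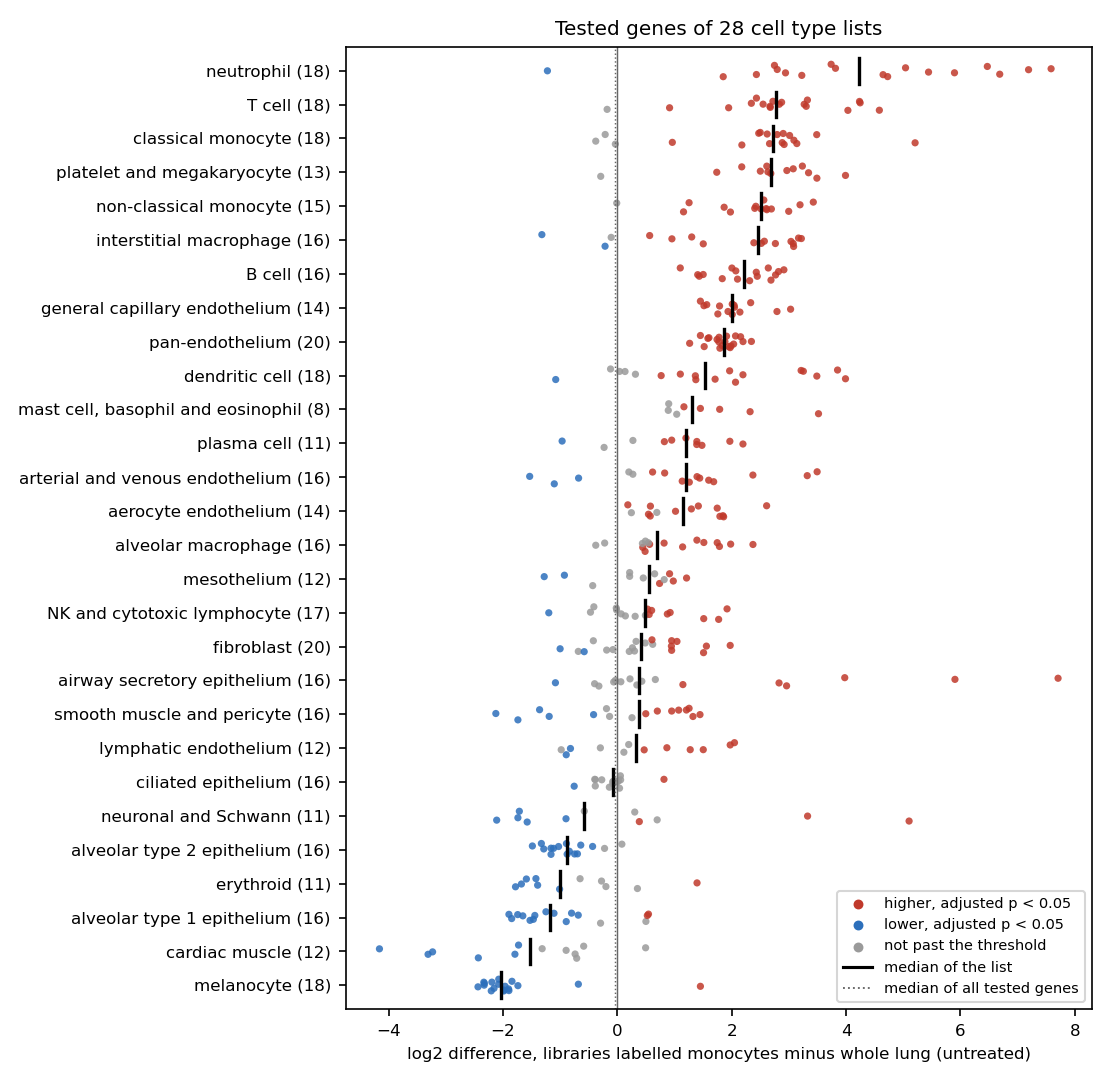
Log2 difference (sorted over lung) of each tested gene in 28 cell type lists, ordered by the list median (black bar), with the number of tested genes in brackets. Medians run from −2.03 for melanocyte genes to 4.23 for neutrophil genes, and the dotted line marks the all-gene median of −0.04.

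Alveolar epithelial genes were mostly lower in the sorted libraries, yet all remained measurable there. Of 16 alveolar type 2 genes 14 were lower and none higher (background 33.6% lower), with a median of −0.88. Sftpc stood at 2398, 2445, 2491 and 2509 CPM in the sorted and 3441, 3426, 5972, 4531 and 4635 CPM in the lung libraries (log2 difference −0.84, SE 0.16, adjusted p = 0.000797). The groups did not overlap (29.2% of all tested genes had every sorted library below every lung library), and the sorted libraries kept 0.559 of the lung level. Sftpb, a surfactant protein gene, was 2.17-fold and Scd1, a fatty acid desaturase, 2.51-fold lower. Napsa, the protease that processes surfactant proteins, and Lyz1 did not pass. Alveolar type 1 genes were lower for 12 of 16 and higher for 2 (median −1.18). Ager, the receptor for advanced glycation end products, stood at 260, 276, 277 and 287 CPM in the sorted and 584, 584, 1063, 760 and 816 CPM in the lung libraries, 2.77-fold lower. Col4a3, a basement membrane collagen, was 3.72-fold lower. The 2 higher members, Vegfa and Emp2, are not restricted to type 1 cells, and Emp2 is in the aerocyte list too; its call was lost under library-total scaling and without sorted replicates 3 and 4 (adjusted p = 0.0787).

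Airway genes divided into those at similar levels and a few that were far higher. Of 16 airway secretory genes 6 were higher and 1, the sodium channel subunit Scnn1b, lower (median 0.39). The share higher was not far from the background of 31.9%, and 33.6% of all tested genes were lower. The lower count was 3 without lung replicate 2. Scgb1a1 stood at 3395, 3701, 4471 and 4824 CPM in the sorted and 3937, 2227, 7760, 6926 and 6127 CPM in the lung libraries, a log2 difference of −0.40 (SE 0.31, adjusted p = 0.275). Cyp2f2 and Cbr2, enzymes of club cells, also did not pass (adjusted p = 0.685 and 0.471). Without lung replicate 2, which was the lowest lung library in all 3 genes, Scgb1a1 and Cbr2 were called lower, at −0.60 and −0.57. Krt15, a keratin of basal cells, stood at 12.95, 14.3, 13.8 and 12.6 CPM in the sorted and 0.0497, 0.0295, 0.149, 0.0389 and 0.0424 CPM in the lung libraries. The lung values rest on a few counts each, and the gene passed the filter on low counts through the sorted libraries alone, so no fold or test is given. Krt5, the defining basal cell keratin, which was looked up after Krt15 had been seen, stood at 9.28, 9.40, 9.85 and 10.03 CPM in the sorted libraries; it was listed at 0 in 4 lung libraries and at 0.0295 CPM in lung replicate 2. Bpifa1, a secreted protein of the upper airway, stood at 598, 609, 595 and 619 CPM in the sorted and 4.92, 4.69, 1.78, 28.7 and 9.73 CPM in the lung libraries. Its log2 difference of 5.90 (SE 0.66) was 6.82 without lung replicate 4. The values of Krt15, Krt5 and Bpifa1 each lay within a narrow range in the 4 sorted libraries. Of 16 genes of ciliated cells 1 was higher, Tppp3, and 1 lower, Dnaic2 (median −0.08); 4 were lower without lung replicate 2 and 3 under library-total or upper-quartile scaling. The ciliogenesis factor Foxj1 stood at 41.6 ± 1.44 against 40.03 ± 12.4 CPM.

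Stromal genes were mixed. Of 20 fibroblast genes 8 were higher and 2 lower (median 0.41), not far from the background of 31.9% higher. The collagen genes Col1a1 and Col3a1 were not called (634 ± 22.7 against 848 ± 555 CPM, and 712 ± 18.0 against 1142 ± 667 CPM); lung replicate 2 held 1818 and 2294 CPM of them, the other lung libraries 497 to 790 and 733 to 1153 CPM. Col3a1 was called lower under library-total (log2 difference −0.84, adjusted p = 0.0287) and upper-quartile scaling, with no filter, with the treated libraries in the fit, and without lung replicate 1 or 5. Fn1, fibronectin, which macrophages also make, was 2.84-fold higher. Thy1, shared with T cells, overlapped between the groups (16.7, 42.0, 94.0 and 106 CPM against 11.7 to 25.2 CPM) and lost its call without sorted replicates 3 and 4. Smooth muscle and pericyte genes were higher for 8 of 16 and lower for 5 (median 0.38), beside a background of 31.9% higher and 33.6% lower. The higher ones included the pericyte genes Notch3 (2.31-fold) and Trpc6 (2.72-fold), the lower ones the contractile genes Acta2, Tagln, Cnn1 and Actg2, of which Actg2 stood at 1.898 ± 0.302 against 8.27 ± 0.451 CPM. Mesothelial genes were higher for 4 of 12 and lower for 2, a share near the background of 31.9%, with 2 of 12 higher without sorted replicates 3 and 4. Cardiac muscle genes were lower for 6 of 12 and higher for none (median −1.52), counts that turned on single libraries. The list had 10 of 12 lower without lung replicate 2. It had 4 of 10 lower and 1 higher (median −0.74) without lung replicate 4, and 3 of 12 lower under limma-voom, with the replicate number as a block or without sorted replicates 3 and 4. Myh6, the α heavy chain of cardiac myosin, stood at 1.54, 2.22, 1.21 and 1.06 CPM in the sorted and 12.6, 0.206, 23.02, 75.8 and 21.97 CPM in the lung libraries; lung replicate 2 was below every sorted library and lung replicate 4 far above the rest. Its log2 difference was −4.16 (SE 1.03, adjusted p = 0.00406) and −3.27 without lung replicate 4. The call was lost under limma-voom (adjusted p = 0.223), with the replicate number as a block (0.0625) and without sorted replicates 3 and 4 (0.0595).

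Melanocyte genes, which the injected B16F10 cells express, had the lowest median of the 45 lists. Of 18 members 17 were lower (median −2.03), 16 of them by more than 2-fold (background 10.1%). Tyrp1 stood at 1214, 1147, 1032 and 1021 CPM in the sorted and 5353, 4681, 3249, 4491 and 4059 CPM in the lung libraries (log2 difference −1.99, SE 0.15, adjusted p = 6.8e-07). Dct, dopachrome tautomerase, stood at 1499, 1432, 1261 and 1192 CPM against 5919, 5023, 4112, 5108 and 4963 CPM. Gpnmb, a melanosomal glycoprotein that macrophages also make, was 3.72-fold lower, and Trpm1, a cation channel of melanocytes, 5.41-fold lower. The higher member was Kit, the stem cell factor receptor, which mast cells and lung endothelium also carry, at 331 ± 18.9 against 121 ± 14.3 CPM. The list summed to 6296 ± 668 CPM in the sorted and 23030 ± 3476 CPM in the lung libraries, so that the sorted libraries kept 0.273 of the lung sum. Sox10 and Cdh19, neural crest genes in the neuronal and Schwann cell list that melanoma cells express too, were 3.34-fold and 4.31-fold lower. That list was mixed, with 5 of 11 tested members lower and 3 higher (median −0.58). The background was 33.6% lower and 31.9% higher.

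The genes that were lower by the largest factors came from several sources. Besides Myh6, Trpm1 and Pgf they included Tnnt2, cardiac troponin T (9.91-fold lower; log2 difference −3.31, and −2.59 without lung replicate 4), Cited1, a transcriptional co-regulator of pigment cells (17.2 ± 0.653 against 123 ± 36.9 CPM), Ogdhl, a mitochondrial dehydrogenase subunit (2.11 ± 0.326 against 15.3 ± 5.23 CPM), Ankrd1, a muscle ankyrin repeat protein (6.60-fold lower), Kcnj13, a potassium channel (6.35-fold lower), and Gpr37, an orphan receptor (6.04-fold lower). Car9, the hypoxia-induced carbonic anhydrase, stood at 4.01, 4.51, 4.36 and 5.44 CPM in the sorted and 35.5, 41.6, 14.2, 18.4 and 18.6 CPM in the lung libraries. Mgarp, a mitochondrial protein of hypoxic cells, was 7.13-fold lower, and it too was highest in lung replicates 1 and 2. Glycolysis and hypoxia genes were lower for 12 of 20 and higher for 1 (median −1.19), beside a background of 33.6% lower and 31.9% higher. Gapdh stood at 513 ± 24.6 against 1319 ± 388 CPM, and Aldoa was 2.44-fold and Pkm 2.19-fold lower. Cell cycle genes were lower for 22 of 22 (median −0.93), from Ccnb1 (2.69-fold) to Pcna (1.21-fold). Mki67, the proliferation antigen, stood at 157 ± 3.41 against 213 ± 26.7 CPM. When treated and untreated libraries were fitted together, 16 of 22 were lower; Mki67, Top2a and Pcna were among the 6 that lost their call. Oxidative phosphorylation genes were lower for 21 of 22 (median −0.63), with Atp5b 1.57-fold lower. Cytosolic ribosomal protein genes were lower for 13 of 28 and higher for none (median −0.22), beside a background of 33.6% lower and 31.9% higher. The lower count was 22 under library-total, 20 under upper-quartile and 10 under DESeq2 scaling, and 8 without sorted replicates 3 and 4. These genes have many near-identical copies. The most abundant row of the lung libraries, an Ensembl ID that the table gives no symbol (ENSMUSG00000119584), stood at 4190 ± 209 against 16460 ± 1505 CPM.

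Inflammatory and immediate early genes had the largest medians of the 17 pathway lists. Of 22 inflammatory cytokine and NF-κB target genes 21 were higher (median 3.88), and of 25 immediate early genes 24 (median 2.71). The background was 31.9% higher. Sorting and cell preparation came with the sorted libraries alone. Their part in the inflammatory and chemokine levels below cannot be told apart from that of the cells collected. Il1b, interleukin 1β, stood at 601, 605, 634 and 647 CPM in the sorted and 5.72, 7.11, 5.92, 5.27 and 5.87 CPM in the lung libraries, 104-fold higher (log2 difference 6.70, SE 0.10, adjusted p = 8.85e-12). Osm, oncostatin M, stood at 111, 103, 112 and 108 CPM against 0.768 to 1.15 CPM. Il10, which restrains macrophage activation, stood at 16.1, 14.8, 10.1 and 10.4 CPM against 0 to 0.175 CPM, too few lung counts for a fold. Nfkbia, the inhibitor that NF-κB itself induces, was 8.47-fold higher at 578 ± 39.7 against 68.2 ± 8.11 CPM. Sod2, a mitochondrial superoxide dismutase, was the member that did not pass (120 ± 7.71 against 109 ± 8.95 CPM, adjusted p = 0.123); it was called higher without lung replicate 2 and with only genes averaging 5 CPM or more.

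Chemokine ligand genes were higher for 20 of 24 tested members and lower for 1 (median 2.07), beside a background of 31.9% higher and 33.6% lower. Cxcl2, which draws neutrophils, had a log2 difference of 9.54 (SE 0.32, adjusted p = 3.96e-09). That was the largest among called genes averaging 10 CPM or more in the sorted libraries. Predicted loci, pseudogenes and immunoglobulin or T cell receptor segments were left out of this ranking. It stood at 348, 338, 341 and 357 CPM in the sorted and 0.547, 0.708, 0.693, 0.0389 and 0.445 CPM in the lung libraries. Cxcl1, a related chemokine that binds the same receptor, stood at 99.5, 91.4, 88.8 and 85.1 CPM against 0.398, 1.12, 0.644, 0.506 and 0.339 CPM (log2 difference 7.29, SE 0.22). Cxcl12, a stromal and endothelial chemokine, was 3.03-fold higher. The lower member was Cxcl15, also called lungkine, which alveolar type 2 cells make and whose list it shares, at 252 ± 8.67 against 466 ± 93.0 CPM.

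The sequence before the start of Cxcl1 and Cxcl2 is shown because both genes were at most 1.12 CPM in every lung library and far higher in the sorted libraries. The bases are those of RefSeq (GRCm38.p6), 250 bases up to the start of each gene, on the plus strand of chr5:90890995-90891244 and chr5:90903649-90903898. Capitals mark a match to an NF-κB motif (GGGA, any base, then TTTCC), which begins 71 bases before the start of Cxcl1 and 97 before that of Cxcl2.
Cxcl1: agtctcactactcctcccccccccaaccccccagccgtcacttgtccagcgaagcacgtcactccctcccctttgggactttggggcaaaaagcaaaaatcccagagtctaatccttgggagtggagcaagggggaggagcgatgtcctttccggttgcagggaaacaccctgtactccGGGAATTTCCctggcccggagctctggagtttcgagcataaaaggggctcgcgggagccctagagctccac
Cxcl2: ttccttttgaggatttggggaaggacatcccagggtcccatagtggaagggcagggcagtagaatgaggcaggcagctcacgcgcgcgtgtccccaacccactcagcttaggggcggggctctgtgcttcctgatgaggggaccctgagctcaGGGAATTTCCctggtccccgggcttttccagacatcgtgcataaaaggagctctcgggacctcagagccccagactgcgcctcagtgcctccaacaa
Read on both strands, this motif was in 0.41% of the 27025 genes with such a window in the table. It was in 3 of the 18 chemokine genes that had a window (Cxcl1, Cxcl2 and Cxcl3), in 2 of 16 inflammatory genes (Il6 and Nfkbia) and in none of 20 immediate early genes. A match is a description of the letters and not a site shown to be bound.

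Immediate early genes, which are induced within minutes of a stimulus without new protein, were higher at a nearly constant level over the sorted libraries. They summed to 14790, 14870, 15050 and 14740 CPM in the sorted and 1706 to 2120 CPM in the lung libraries. Fosb stood at 744, 789, 887 and 888 CPM in the sorted and 8.60, 13.4, 8.69, 4.05 and 4.71 CPM in the lung libraries (log2 difference 6.73, SE 0.33, adjusted p = 4.85e-08). Zfp36, the mRNA-destabilising protein tristetraprolin, stood at 1608, 1536, 1482 and 1458 CPM against 35.8, 37.0, 51.0, 41.0 and 36.8 CPM, 37.7-fold higher. Junb was 15.3-fold and Jun 6.56-fold higher. Sorting, and the cell preparation it needs, came with the sorted libraries alone, so its part in these levels cannot be told apart from that of the cells collected. Myc was the member that did not pass (45.2 ± 0.831 against 52.1 ± 8.14 CPM, adjusted p = 0.104); it was called lower under library-total and upper-quartile scaling and without lung replicate 3. Fosb, the member with the largest difference, is shown with its 250 bases on the minus strand of chr7:19310046-19310295 (RefSeq, GRCm38.p6). Capitals mark TGACG, the core of the cyclic AMP response element, which begins 60 bases before the start.
Fosb: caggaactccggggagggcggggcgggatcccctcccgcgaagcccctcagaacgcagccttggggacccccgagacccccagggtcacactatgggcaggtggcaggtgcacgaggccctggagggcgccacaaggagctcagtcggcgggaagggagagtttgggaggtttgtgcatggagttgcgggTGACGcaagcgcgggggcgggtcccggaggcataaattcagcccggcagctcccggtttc
On either strand TGACG was in 12 of the 20 immediate early genes with a window (60%) and in 19.79% of all 27025 genes. It was in 6 of 17 oxidative phosphorylation genes (35.3%) and 4 of 13 pan-endothelial genes (30.8%). Inflammatory, chemokine and melanocyte genes held it at 18.8%, 11.1% and 9.1%. The full element TGACGTCA, which holds that core, was in Btg2 and Dusp1 among the 20 (10%) and in 1.77% of all. It was also in 1 melanocyte (9.1%), 1 pan-endothelial (7.7%) and 1 oxidative phosphorylation gene (5.9%), and in no chemokine or inflammatory gene. The CArG box (CC, a run of A or T, then GG) was in 2 of the 20 (10%) and in 1.62% of all. The AP-1 motif TGANTCA was in none of the 20, in 5 of 16 inflammatory genes (31.2%) and in 7.82% of all.

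Other stress and interferon genes were less uniform. Heat shock and chaperone genes were higher for 9 of 16 and lower for 5 (median 0.45), beside a background of 31.9% higher and 33.6% lower. Hspa1a, the inducible HSP70, stood at 108, 117, 147 and 157 CPM in the sorted and 6.64, 12.9, 10.2, 6.69 and 7.46 CPM in the lung libraries (log2 difference 3.92, SE 0.21); it has a near-identical copy, Hspa1b. Hspa8 was 1.48-fold higher, Hsp90ab1 did not pass (2903 ± 36.3 against 2678 ± 418 CPM), and Cryab, a small heat shock protein, was 2.43-fold lower. Type I interferon response genes were higher for 18 of 24 and lower for 1 (median 0.83). Oas3 stood at 35.6 ± 3.19 against 4.17 ± 1.54 CPM and Stat2 at 105 ± 2.06 against 44.4 ± 6.80 CPM, while Ifit2 was the lower member at 34.2 ± 1.58 against 50.2 ± 5.05 CPM. Lysosomal genes were higher for 8 of 20 and lower for 3 (median 0.16, and −0.01 under library-total scaling), not far from the background of 31.9% higher. Ctss, the cathepsin of antigen-presenting cells, stood at 757, 682, 543 and 485 CPM against 93.7 to 165 CPM and Psap, prosaposin, at 3571 ± 470 against 1265 ± 191 CPM, whereas Ctsb and Lamp1, made by most cells, were not called. Ctsb was called higher without lung replicate 2 (log2 difference 0.64, adjusted p = 0.0026) and under 5 other alternatives, and Lamp1 under the DESeq2 test and with only genes averaging 5 CPM or more. The plot of pathway lists gives every member.

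**Figure D5:**
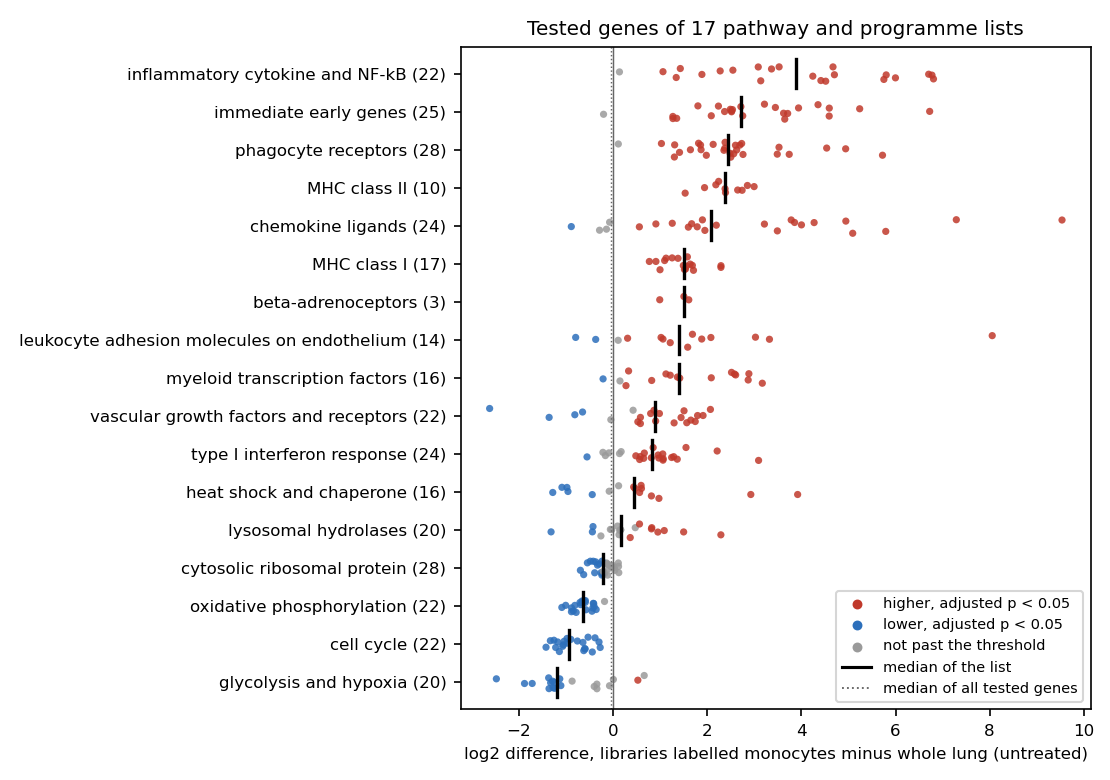
Log2 difference (sorted over lung) of each tested gene in 17 pathway and programme lists, ordered by the list median (black bar). The inflammatory list has a median of 3.88 and the immediate early list 2.71; cell cycle and oxidative phosphorylation genes lie below 0.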

How the data were processed

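Poly(A) RNA of 9 untreated libraries (4 sorted, 5 whole lung) was analysed. The values in the authors' deposited table are raw whole-number counts. The build (GRCm39) and the tools (Subread 2.0.3, featureCounts, STAR 2.7.9) come from the submitters' processing notes. Strand use in counting: not given in the sources used here. Overlapping, antisense and near-identical genes are therefore uncertain. From these counts, genes were kept by filterByExpr (minimum count 10), libraries scaled by TMM, and only the 9 libraries fitted, with edgeR 4.0.16 (R 4.3.3, limma 3.58.1; quasi-likelihood test), Benjamini-Hochberg adjustment and a threshold of 0.05. The scripts were tested on simulated counts. Replicates of a group all differed by more than sampling noise in a chi-square comparison over genes averaging 50 counts or more.

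The markers, the 45 lists (770 of 771 entries matched a gene) and the comparison were chosen with earlier results of these data known. Lists overlap, and they are described by counts and medians only. Genes named were the 3 markers, the 15 largest differences in each direction at 10 CPM or more, the 3 most abundant and the most extreme members of each list and the 8 most abundant genes per group; not all are printed. The 15 largest differences were taken without predicted loci, pseudogenes and immunoglobulin or T cell receptor segments. Exceptions of a list, defining members and genes of developing lymphocytes were added after their values were seen. Alternatives were DESeq2 1.42.0 (size factors and test), library totals, upper-quartile scaling, limma-voom, no filter, a mean of at least 5 CPM, all 4 lung and monocyte groups in 1 fit, the replicate number as a block and each library left out. Leaving out sorted replicates 3 and 4 together, and the most abundant lung row, was chosen after seeing the data. Promoter sequences are from RefSeq (GRCm38.p6); gene coordinates of the counts' build are not used here. Some results on single genes are not reported here.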

Additional observations from a re-analysis of the deposited data

Results flagged for a closer look

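In 10 of 420 groups of values looked at, 1 library lay apart from the rest of its group by Dixon's ratio of gap to range on log2 values. The groups were the sums of 45 lists and the genes with printed values, each in the 4 sorted and the 5 lung libraries. By chance about 1 group in 20 would hold such a library. Among the sorted libraries, replicate 4 was low in the summed cardiac muscle genes (20.82 CPM, the others 23.37 to 23.74 CPM), in Adrb1 (70.51 CPM, the others 77.1 to 77.19 CPM) and in H2-D1 (2450 CPM, the others 2553 to 2570 CPM), and replicate 1 was low in Acta2 (39.84 CPM, the others 40.67 to 40.81 CPM). Lung replicate 2 was high in Acta2 (125.8 CPM, the others 79.76 to 90.12 CPM) and in Prox1 (16.54 CPM, the others 9.046 to 10.54 CPM), and was the 1 lung library with any Krt5 (0.02949 CPM). Lung replicate 4 was low in Cxcl2 (0.03891 CPM, the others 0.4453 to 0.7078 CPM) and in Ngp (0.07781 CPM, the others 0.3816 to 0.6461 CPM). Glycam1 was listed above 0 in lung replicate 3 alone (0.04951 CPM). For Krt5 and Glycam1 every other lung library stood at 0, so the ratio was 1 whatever the remaining value, and these flags carry no weight.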

How the results depend on the processing

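The 3 markers kept their direction and call under every alternative; over single left-out libraries the log2 difference was 2.52 to 2.81 for Csf1r, 5.12 to 5.44 for Cd14 and 2.39 to 2.60 for Ccr2. The count of changed genes ran from 11147 to 12028 over left-out libraries. Library totals moved the medians of interstitial macrophage (2.28), melanocyte (−2.21), cell cycle (−1.11), immediate early (2.54) and inflammatory genes (3.705). Testing only the 11983 genes that average 5 CPM or more, 2529 genes changed more than 2-fold (1681 higher, 848 lower), against 4790, and the neutrophil and inflammatory medians were 3.255 and 4.26. Fewer members could then be called higher in the platelet (5 of 6), plasma cell (4 of 6), natural killer (3 of 3) and mast cell (2 of 2) lists. Without sorted replicates 3 and 4 the neutrophil, T cell and inflammatory medians were 3.71, 1.75 and 4.04. Under limma-voom the neuronal and Schwann cell median was 0.032, against −0.58; the cause was not tested. With the replicate number as a block 10866 genes changed, 10725 of them shared with the fit without it. Same-numbered sorted and lung libraries correlated at 0.023 to 0.055 in their deviations, and not every library correlated best with its own number, so the numbers were not treated as pairs. Genes under about 10 counts in the lung libraries have imprecise log2 differences.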
